A study of Mus musculus with 30 samples.

Results

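The genes described here carry the signal of leukaemia inhibitory factor (LIF) through the transcription factor STAT3 and shut it off again. They were taken as the rows of the count table whose Ensembl gene identifier, read without its version suffix, maps to 1 of 10 mouse symbols: Lifr and Il6st (receptor chains), Stat3, Socs1, Socs2, Socs3, Socs5 and Cish (feedback inhibitors of the SOCS family), and Pim1 and Pim3 (kinases). All 10 symbols were found, each as 1 of the 57186 identifiers in the table, and all 10 passed the filter on low counts in both cell lines.

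RNA was sequenced from NIH/3T3, a mouse fibroblast line grown in DMEM with 10% fetal bovine serum, and from CGR8, a mouse embryonic stem cell line grown in N2B27 medium with 2i/LIF, a pair of kinase inhibitors plus LIF. Both lines carry the same genotype label, ROSA26 SLT knock-in, whose insert is not explained in the labels. Cycloheximide, which blocks the elongation step of protein synthesis, was given at 0.1 µg/mL, and cells were collected at 0, 1, 2, 5 and 48 h, with 3 replicates (A, B and C) per line and time, 30 libraries in all. The treatment label gives the same dose to the samples at 0 h, which the series treats as the start of the course. The purpose stated by the series was to follow the early response of RNA levels to the block of protein synthesis, with each time set against 0 h within a line. Cell type and medium differ together between the lines, LIF included, so that their parts in any difference between the lines cannot be told apart. The labels do not say that replicates came from separate cultures, and the p-values then measure the spread between these samples, which may be technical.

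As background, LIF brings the LIF receptor (Lifr) together with gp130 (Il6st), a chain shared by the whole interleukin-6 family of cytokines. Janus kinases bound to these chains phosphorylate STAT3, which enters the nucleus and switches on genes, among them those of its own inhibitors. SOCS proteins and their relative CIS (Cish) bind receptors or kinases and mark them for degradation or block them, and PIM kinases are growth-promoting kinases induced by STAT factors and regulated mainly through their amount. In mouse embryonic stem cells LIF and STAT3 help to maintain the undifferentiated state, which is why LIF is part of the medium.

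The 30 libraries held 18.2 to 30.5 M counts each. The 6 stem cell markers examined were at most 0.383 CPM (counts scaled to the library's total) in any NIH/3T3 library and at least 376 CPM in every CGR8 library, and 6 fibroblast markers summed to 4014 to 10537 CPM in the NIH/3T3 libraries, while in CGR8 their sum was 2.02 to 5.23 CPM. Of the fibroblast markers, Thy1 (at most 0.0932 CPM) and Postn (at most 1.01 CPM) were nearly absent from NIH/3T3. Thy1 went the other way from the list, at 1.47 to 4.34 CPM in the CGR8 libraries. In 5 libraries both correlations with the other replicates of the group fell under 0.99 while the other pair lay above it: NIH/3T3 1 h replicate C, NIH/3T3 2 h replicate A, CGR8 0 h replicate B, CGR8 2 h replicate A and CGR8 5 h replicate A. They were kept, and counts of genes called are also given without them. In bulk RNA a change per cell and a change in the share of cells that express a gene cannot be told apart.

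At 0 h all 10 genes differed between the lines at an adjusted p under 0.05 in edgeR's quasi-likelihood test with Benjamini-Hochberg adjustment over all genes tested, against 79.1% of all 17549 genes. In CGR8, 7 were higher (42.8% of all) and 3 lower (36.3% of all). On the log2 scale (CGR8 minus NIH/3T3), the 3 lower genes were Il6st at -0.72 (SE 0.11, adjusted p = 1.8e-06), Socs1 at -2.74 (SE 0.17, adjusted p = 8.0e-15) and Socs5 at -4.08 (SE 0.13, adjusted p = 3.6e-21). The inhibitor genes Socs2 and Socs5 stood at opposite ends. Socs2 was 78.01, 67.1 and 77.2 CPM in the CGR8 replicates A, B and C and 1.53, 1.02 and 1.68 CPM in those of NIH/3T3, a fitted difference of 5.65 (SE 0.15, adjusted p = 6.2e-23). Socs5 was 7.001, 7.23 and 6.11 CPM in CGR8 and 112, 121 and 101 CPM in NIH/3T3. No CGR8 library overlapped an NIH/3T3 library for either gene. CPM were scaled within each line, whereas the fitted differences come from a fit of both lines. The LIF receptor gene Lifr was 96.2, 69.2 and 94.3 CPM in CGR8 and 2.47, 2.904 and 2.47 CPM in NIH/3T3, a difference of 5.00 (SE 0.23, adjusted p = 6.9e-18). Smaller excesses in CGR8 were fitted for Pim1, at 2.33 (SE 0.13, adjusted p = 9.3e-16), Socs3, at 1.17 (SE 0.12, adjusted p = 7.3e-10), Pim3, at 0.66 (SE 0.11, adjusted p = 5.3e-06), and Stat3, at 0.52 (SE 0.11, adjusted p = 7.0e-05). Cish was higher in CGR8 as well, but its NIH/3T3 level at 0 h rests on 7 counts over 3 libraries, so the fitted difference of 3.86 (SE 0.41, adjusted p = 1.5e-09) is imprecise.

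To compare levels between genes, CPM values were divided by the length of each gene's exons, merged over all annotated transcripts. This length was not matched to the transcripts expressed, and the order of genes depends on it. On this scale Pim3 was the highest of the 10 in both lines at 0 h, at 29.0 ± 2.92 CPM per kb in NIH/3T3 and 45.9 ± 2.78 CPM per kb in CGR8 (SD, n = 3). In NIH/3T3 it was followed by Socs5 (17.6), Il6st (16.8) and Socs3 (16.1), of which the neighbours overlapped between replicates. Then came Stat3 (10.98), Socs1 (6.997), Pim1 (3.74), Lifr (0.246), Socs2 (0.150) and Cish (0.0144), each apart from the next. In CGR8 the order after Pim3 was Socs3 (36.3), Pim1 (18.9), Stat3 (15.8), Il6st (10.2), Lifr (7.89), Socs2 (7.64), Socs1 (1.05), Socs5 (1.04) and Cish (0.227). There Lifr overlapped Socs2 and Socs1 overlapped Socs5, and the other neighbours did not overlap. Between the receptor chains, the shared chain Il6st stood above the LIF-binding chain Lifr in both lines.

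**Figure D1:**
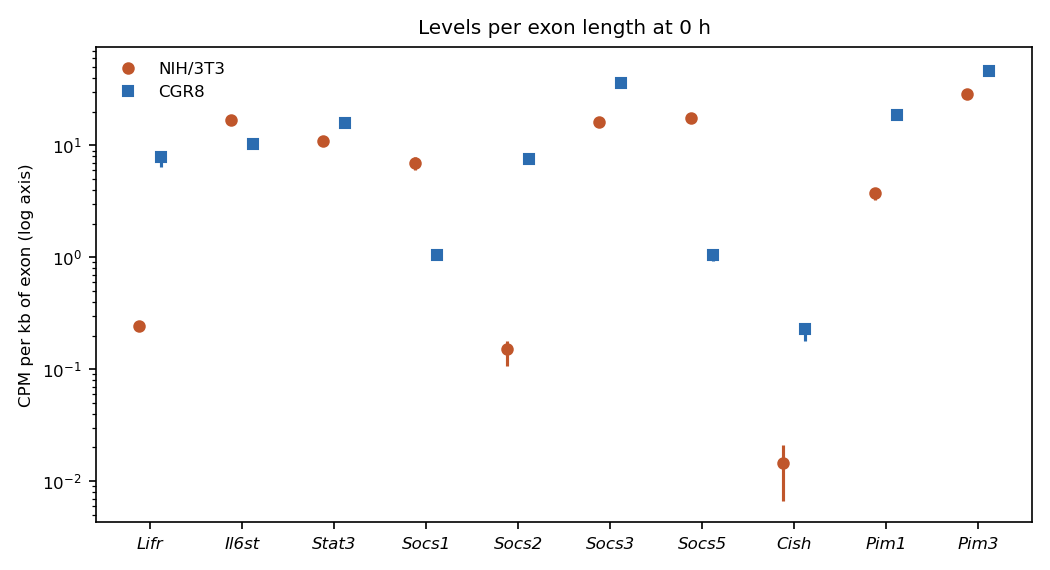
Level of each gene at 0 h, in CPM per kb of exon on a log axis, for NIH/3T3 (circles) and CGR8 (squares). Points are means of 3 replicates and bars run from the lowest to the highest replicate. Lifr, Socs2 and Cish sit far above their NIH/3T3 points in CGR8, and Socs1 and Socs5 far below.

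Through the course of cycloheximide the 10 genes did not move as a block. In NIH/3T3, 2 of 10 were called against 0 h at 1 h (0.732% of all genes tested in that comparison), 7 at 2 h (35.0% of all), 9 at 5 h (51.0% of all) and 6 at 48 h (52.3% of all). Split by direction, 1 was higher (0.653% of all genes were) and 1 lower (0.0789%) at 1 h, and 5 were higher (16.1%) and 2 lower (18.9%) at 2 h. At 5 h 4 were higher (24.0%) and 5 lower (27.1%), and at 48 h 3 were higher (26.7%) and 3 lower (25.6%). In CGR8, 0 of 10 were called by edgeR at 1 h (0.27% of all, 0.144% higher and 0.126% lower, with 1289 of all genes at an unadjusted p under 0.05), 6 at 2 h (19.9% of all), 6 at 5 h (52.1% of all) and 6 at 48 h (27.8% of all). There 0 were higher (8.97% of all genes were) and 6 lower (11.0%) at 2 h, 1 higher (24.9%) and 5 lower (27.2%) at 5 h, and 2 higher (12.2%) and 4 lower (15.6%) at 48 h. At 48 h in NIH/3T3 and at 5 h in CGR8 the 6 of 10 lay near the share of all genes called. Libraries that lay all above or all below those at 0 h were common among all genes. In NIH/3T3 this held for 4, 8, 9 and 6 of the 10 genes at 1, 2, 5 and 48 h. The shares of all genes were 14.3%, 45.1%, 66.9% and 70.0%. In CGR8 it held for 4, 6, 6 and 7 of the 10, beside 25.1%, 32.1%, 54.7% and 48.7% of all genes. The median log2 fold change of the 10 at 2 h was 0.61 in NIH/3T3, where that of all genes was -0.0051, and -0.41 in CGR8, where that of all genes was 0.010.

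The shares of all genes called belong to the main fit and not to the alternatives, here and below. The count at 1 h in NIH/3T3 was 0 when the 0 h and 1 h libraries were fitted alone, 7 with voom quality weights and 5 without the libraries that stood apart. Leaving out single libraries gave 1 to 3: 1 without 0 h replicate A or C or 1 h replicate A or B, and 3 without 1 h replicate C. In CGR8 at 1 h, DESeq2 and the fit without a filter each called 1 (Socs3), voom called 3, and leaving out the libraries that stood apart gave 1. In CGR8 at 2 h the count was 1 with the compared libraries alone, 3 without 0 h replicate A and 2 without 2 h replicate C, so that the count at 2 h in CGR8 rests in part on these libraries.

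**Figure D2:**
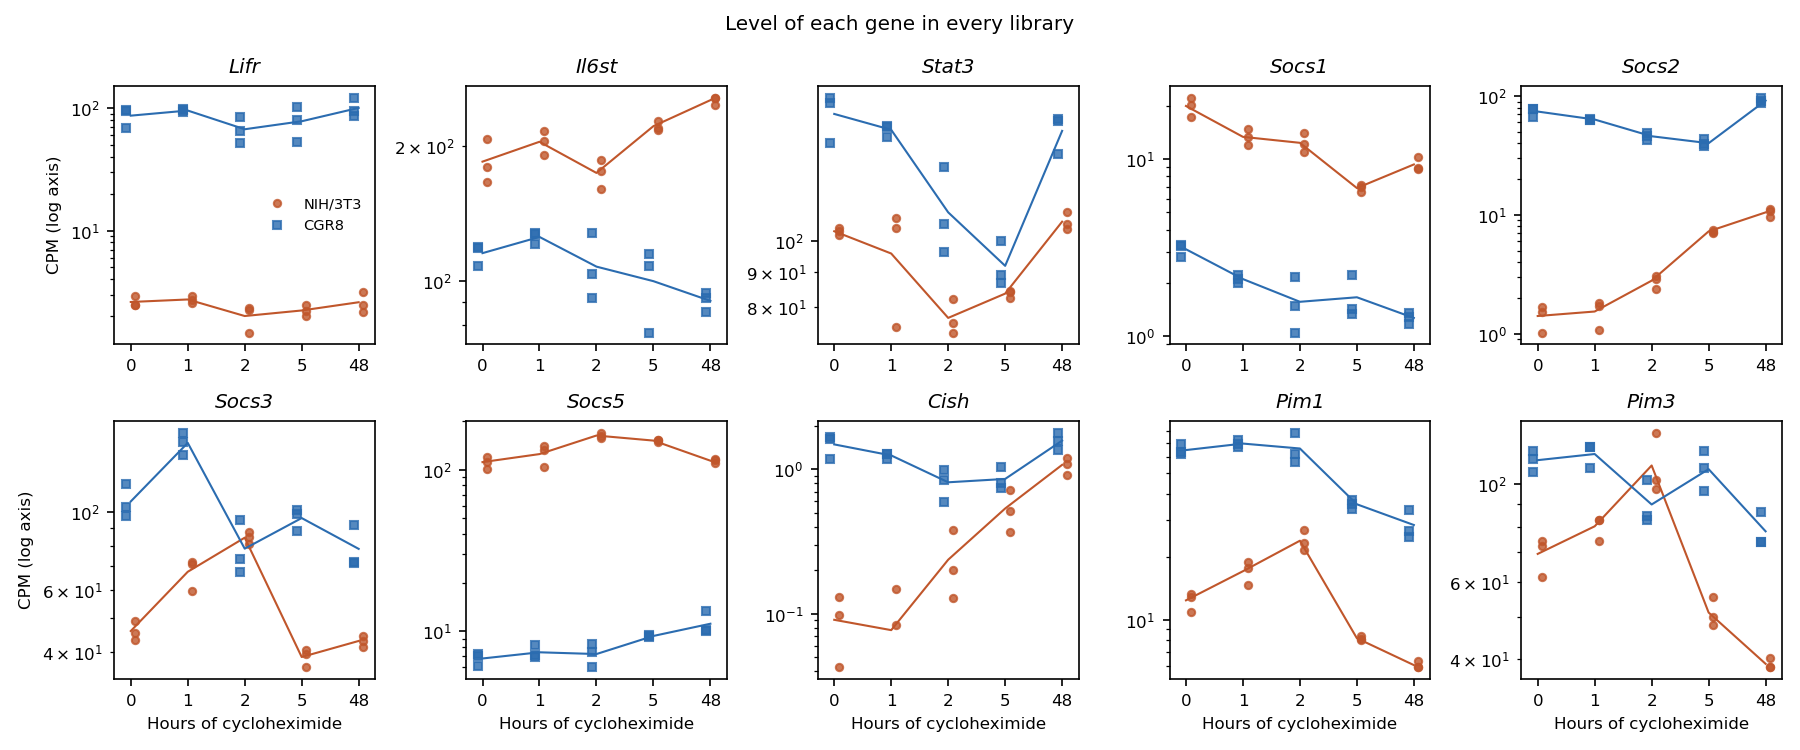
Level of each of the 10 genes in every library, in CPM on a log axis, against hours of cycloheximide (times evenly spaced, not to scale), for NIH/3T3 (circles) and CGR8 (squares). Lines join the means of 3 replicates, and the NIH/3T3 1 h library with 0 counts of Cish is not drawn. Socs3, Pim1 and Pim3 peak at 2 h in NIH/3T3, and the mean of Socs2 climbs there at every step from 1 h to 48 h.

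Of the receptor chains, Lifr, which binds LIF, was called against 0 h in neither line at any time by edgeR with the filter used here. In NIH/3T3 it lay between 1.47 and 3.17 CPM in all 15 libraries. The 3 libraries at 2 h (1.47, 2.32 and 2.23 CPM) lay below all 3 at 0 h, and the log2 fold change was -0.36 (adjusted p = 0.15). In CGR8 it spread widely within groups, from 52.5 to 102 CPM at 5 h alone, and its largest log2 fold change against 0 h, at 2 h, was -0.37 (adjusted p = 0.23). Without a filter on low counts this value was called (-0.40, adjusted p = 0.0418). Il6st, which encodes gp130, was 179, 207 and 166 CPM at 0 h in NIH/3T3, 205, 216 and 191 CPM at 1 h and 186, 176 and 160 CPM at 2 h. The libraries at 1 h and 2 h overlapped those at 0 h. The 1 h value was not called by edgeR (log2 fold change 0.15, adjusted p = 0.57) but was with voom weights (0.20, adjusted p = 0.0124). Il6st then stood at 217, 219 and 227 CPM at 5 h and 247, 255 and 256 CPM at 48 h. All libraries at 5 h and 48 h lay above all at 0 h, with changes of 0.26 (SE 0.089, adjusted p = 0.021) and 0.45 (SE 0.089, adjusted p = 0.00047). The call at 5 h was lost without a filter on low counts (adjusted p = 0.0817) and without 0 h replicate A or C or 5 h replicate B or C (adjusted p of 0.0509 to 0.0852). In CGR8 Il6st went from 119, 108 and 119 CPM at 0 h to 91.6, 85.5 and 94.2 CPM at 48 h, without overlap but with a log2 fold change of -0.35 (adjusted p = 0.070), which was not called. It was called with voom weights (adjusted p = 0.00107), with the compared groups alone (adjusted p = 0.00982) and without the libraries that stood apart (adjusted p = 0.00488). The opposite directions at 48 h differed between the lines in the direct test, by -0.82 (SE 0.16, adjusted p = 0.00038) on the log2 scale (CGR8 change minus NIH/3T3 change).

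Stat3, the factor itself, fell at 2 h and 5 h in both lines and overlapped its starting level at 48 h. In NIH/3T3 it was 103, 104 and 102 CPM at 0 h, 82.2, 73.5 and 75.8 CPM at 2 h, 84.1, 82.4 and 84.6 CPM at 5 h and 110.2, 104 and 106 CPM at 48 h. In CGR8 it was 158, 139 and 162 CPM at 0 h, 96.4, 128 and 106 CPM at 2 h, 88.96, 86.8 and 99.8 CPM at 5 h and 149, 134 and 150.4 CPM at 48 h. In each line the libraries at 2 h and 5 h lay below all at 0 h. Stat3 fell by 0.42 (SE 0.11, adjusted p = 0.0078) at 2 h and by 0.30 (SE 0.11, adjusted p = 0.027) at 5 h in NIH/3T3. In CGR8 it fell by 0.48 (SE 0.11, adjusted p = 0.0081) at 2 h and by 0.74 (SE 0.11, adjusted p = 5.7e-05) at 5 h. From 5 h to 48 h it rose by 0.35 (SE 0.11, adjusted p = 0.0094) in NIH/3T3 and by 0.65 (SE 0.11, adjusted p = 0.00011) in CGR8. The call at 5 h in NIH/3T3 was lost when any 1 of the 0 h or 5 h libraries was left out (adjusted p of 0.056 to 0.0782), although the fitted value stayed between -0.31 and -0.29. In CGR8 the call at 2 h was lost when the compared libraries were fitted alone (adjusted p = 0.0713). The lines' changes did not differ at an adjusted p under 0.05 at any time, and at 5 h the difference was -0.35 (adjusted p = 0.13). At 5 h it was called by DESeq2 (-0.43, adjusted p = 0.0398), with the filter at a mean of 5 CPM, with voom weights, without CGR8 5 h replicate A (-0.51, adjusted p = 0.0454), and without the libraries that stood apart (-0.54, adjusted p = 0.000696).

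Socs3, whose product blocks gp130 and its kinases, peaked early. In NIH/3T3 its level was 43.3, 45.5 and 48.95 CPM at 0 h, 71.9, 71.3 and 59.5 CPM at 1 h, 87.3, 81.2 and 84.6 CPM at 2 h, 39.4, 36.2 and 40.6 CPM at 5 h and 41.5, 43.1 and 44.5 CPM at 48 h. All libraries at 1 h and 2 h lay above 0 h, and those at 5 h below. The rise was 0.56 (SE 0.089, adjusted p = 0.0033) at 1 h and 0.88 (SE 0.089, adjusted p = 4.0e-06) at 2 h, a 1.84-fold increase, and from 2 h to 5 h the level fell by 1.12 (SE 0.09, adjusted p = 1.8e-07). At 5 h Socs3 stood under its start, having dropped by 0.25 (SE 0.09, adjusted p = 0.030) against 0 h. That call was lost without a filter (adjusted p = 0.136) and without 0 h replicate B or C or 5 h replicate A or B (adjusted p of 0.0538 to 0.139), and the call at 1 h was lost with the 2 compared groups alone (0.55, adjusted p = 0.221).

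In CGR8 Socs3 was 103, 120.0 and 97.4 CPM at 0 h, 167, 157 and 145 CPM at 1 h and 94.8, 73.6 and 67.3 CPM at 2 h, then 101, 98.6 and 88.3 CPM at 5 h and 91.9, 72.03 and 71.4 CPM at 48 h. The 3 libraries at 1 h lay above all 3 at 0 h, and the fitted change was not called by edgeR (log2 fold change 0.55, adjusted p = 0.13). It was called by DESeq2 (0.54, adjusted p = 0.0327), without a filter (0.50, adjusted p = 0.0376), with voom weights (0.60, adjusted p = 0.000121) and without the libraries that stood apart (0.64, adjusted p = 0.0192). From 1 h to 2 h Socs3 fell by 0.99 (SE 0.14, adjusted p = 0.0035). At 2 h it stood below its level at 0 h, having dropped by 0.44 (SE 0.14, adjusted p = 0.032), a call lost with the compared groups alone (adjusted p = 0.104) and without 0 h replicate A or B or 2 h replicate B or C (adjusted p of 0.0709 to 0.165). At 48 h it fell by 0.45 (SE 0.14, adjusted p = 0.022), a call lost without 0 h replicate B or 48 h replicate B or C (adjusted p of 0.0938 to 0.112). The change of Socs3 at 2 h thus went up in NIH/3T3 and down in CGR8, and the lines differed by -1.27 (SE 0.17, adjusted p = 1.3e-05) on the log2 scale.

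Because Socs3, Pim1 and Pim3 are textbook STAT targets and rose together at 2 h in NIH/3T3, the sequences just upstream of their start sites are shown. Each line gives the 250 bases before the annotated start, 5′ to 3′ on the gene's strand, from RefSeq on GRCm38.p6, with capitals marking a match to TTCNNNGAA, the core of the STAT recognition sequence. The Pim1 window is the more upstream of 2 that RefSeq gives for that gene.
Socs3, chr11:117969367-117969616, minus strand: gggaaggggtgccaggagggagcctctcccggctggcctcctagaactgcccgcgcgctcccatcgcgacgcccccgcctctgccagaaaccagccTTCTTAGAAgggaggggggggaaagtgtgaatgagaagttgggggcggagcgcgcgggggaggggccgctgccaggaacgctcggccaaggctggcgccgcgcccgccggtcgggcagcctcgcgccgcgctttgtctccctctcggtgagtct
Pim1, chr17:29490535-29490784, plus strand: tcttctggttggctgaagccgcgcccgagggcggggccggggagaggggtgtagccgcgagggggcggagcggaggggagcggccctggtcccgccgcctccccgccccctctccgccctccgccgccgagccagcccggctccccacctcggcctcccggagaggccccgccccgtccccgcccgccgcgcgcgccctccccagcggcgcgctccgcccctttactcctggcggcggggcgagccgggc
Pim3, chr15:88861944-88862193, plus strand: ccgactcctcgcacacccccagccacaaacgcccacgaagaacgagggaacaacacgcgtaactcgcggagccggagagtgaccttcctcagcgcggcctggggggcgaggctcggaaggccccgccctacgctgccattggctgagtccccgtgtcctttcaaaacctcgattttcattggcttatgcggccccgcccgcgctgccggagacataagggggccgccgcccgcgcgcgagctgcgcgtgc
The Socs3 window holds 1 match, whose first base lies 154 bases before the start, and the Pim1 and Pim3 windows hold none. RefSeq promoter sequences were at hand for 8 of the 10 genes, in 10 windows, and of these only that of Socs3 held TTCNNNGAA, a palindrome that reads alike on both strands. Of all 32851 windows of this length, 7.02% held it. The same motif with a spacer longer by 1 base (5.85% of windows) or shorter by 1 base (TTCNNGAA, 7.17%) were in none of the 10. Of 3 other motifs searched on both strands after the data had been seen, GCGNGGGCG, the site of EGR factors, was in windows of Socs3, Pim3 and Lifr and in 4.70% of all windows. GGGCGG, bound by SP factors, was in 8 of the 10 windows and in 32.7% of all, and TGANTCA, bound by AP-1 factors, in 0 of the 10 and in 6.75% of all. GGGCGG and GCGNGGGCG can overlap where they share bases. Their fixed bases are G and C alone. The 10 windows ranged from 48.0% to 82.4% G and C, and the shares were not adjusted for base composition. A match is a description of these letters and not a site in use.

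Socs1, which blocks the catalytic domain of Janus kinases, fell in both lines. In NIH/3T3 it was 20.3, 17.5 and 22.3 CPM at 0 h, 13.4, 12.1 and 14.8 CPM at 1 h, 14.1, 10.97 and 12.2 CPM at 2 h, 6.51, 7.15 and 6.97 CPM at 5 h and 8.83, 10.3 and 8.96 CPM at 48 h. Every library after 0 h lay below all at 0 h. It fell by 0.58 (SE 0.12, adjusted p = 0.027) at 1 h, by 0.70 (SE 0.12, adjusted p = 0.00060) at 2 h and by 1.54 (SE 0.13, adjusted p = 1.8e-07) at 5 h, with a partial return from 5 h to 48 h (0.44, SE 0.13, adjusted p = 0.0066). The call at 1 h was lost with the compared groups alone (adjusted p = 0.41) and without 0 h replicate A or C or 1 h replicate A or B (adjusted p of 0.0948 to 0.234). In CGR8, where Socs1 was low, it went from 3.21, 3.27 and 2.81 CPM at 0 h to 2.15, 1.49 and 1.05 CPM at 2 h and 1.17, 1.34 and 1.28 CPM at 48 h. The CGR8 libraries at every later time lay below all at 0 h. It fell by 1.00 (SE 0.23, adjusted p = 0.0090) at 2 h, by 0.91 (SE 0.23, adjusted p = 0.0044) at 5 h and by 1.29 (SE 0.24, adjusted p = 0.00078) at 48 h. The 1 h value was not called by edgeR (log2 fold change -0.56, adjusted p = 0.55) but was with voom weights (-0.54, adjusted p = 0.0164). The call at 2 h was lost without 2 h replicate C (adjusted p = 0.0562) and with the compared groups alone (adjusted p = 0.0571). No difference between the lines in the change of Socs1 was called, and at 5 h it was 0.73 (adjusted p = 0.056) on the log2 scale and called with the replicate letter as a block (0.72, adjusted p = 0.049), with voom weights (0.64, adjusted p = 0.0496), without NIH/3T3 0 h replicate B (0.82, adjusted p = 0.0384) and without CGR8 5 h replicate C (0.89, adjusted p = 0.0208).

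Socs2, known above all as a brake on growth hormone signalling through STAT5, changed differently in the lines at 2, 5 and 48 h. In NIH/3T3 it was 1.53, 1.02 and 1.68 CPM at 0 h, 1.81, 1.72 and 1.08 CPM at 1 h, 2.400, 3.08 and 2.91 CPM at 2 h, 7.54, 7.02 and 7.25 CPM at 5 h and 10.8, 11.2 and 9.53 CPM at 48 h. From 2 h on, every library lay above all at 0 h, and each step after 1 h was called: 0.85 (SE 0.20, adjusted p = 0.012) from 1 h to 2 h, 1.37 (SE 0.17, adjusted p = 2.4e-05) from 2 h to 5 h and 0.53 (SE 0.15, adjusted p = 0.0051) from 5 h to 48 h. Against 0 h the rise at 48 h was 2.88 (SE 0.18, adjusted p = 5.5e-09), or 7.37-fold, from a low base. The step from 1 h to 2 h was lost with the compared groups alone (adjusted p = 0.197) and without 2 h replicate C (adjusted p = 0.0515).

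In CGR8, at its much higher level, Socs2 went down before it came back. It was 78.01, 67.1 and 77.2 CPM at 0 h, 63.4, 64.2 and 62.9 CPM at 1 h, 48.8, 45.97 and 42.95 CPM at 2 h, 37.8, 39.3 and 43.3 CPM at 5 h and 90.8, 87.2 and 96.8 CPM at 48 h. The libraries at 1, 2 and 5 h lay below all at 0 h and those at 48 h above. The change at 1 h was not called by edgeR (log2 fold change -0.22, adjusted p = 0.58) but was with voom weights (-0.28, adjusted p = 0.00666). Socs2 fell by 0.69 (SE 0.096, adjusted p = 0.00028) at 2 h and by 0.88 (SE 0.097, adjusted p = 4.3e-06) at 5 h, then rose by 1.19 (SE 0.097, adjusted p = 1.5e-07) from 5 h to 48 h. It ended above its start by 0.31 (SE 0.095, adjusted p = 0.025), a call lost with scaling by library size alone (adjusted p = 0.0662), without a filter (adjusted p = 0.111), and without 0 h replicate B or 48 h replicate A or C (adjusted p of 0.0533 to 0.111). The difference between the lines in the change was -1.62 (SE 0.20, adjusted p = 5.8e-06) at 2 h, -3.14 (SE 0.19, adjusted p = 2.3e-11) at 5 h and -2.59 (SE 0.19, adjusted p = 1.4e-10) at 48 h. These 3 differences were called under every alternative tried.

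Cish, which encodes the founding member of the family and is induced by STAT5, moved in the direction of Socs2 at 5 h in both lines. In NIH/3T3 its counts were 2, 1 and 4 at 0 h, 0, 2 and 3 at 1 h, 7, 5 and 3 at 2 h, 9, 17 and 11 at 5 h and 32, 22 and 21 at 48 h. The count of 0, in 1 h replicate A, allows a level of up to 0.105 CPM (3 counts), a limit that covers counting error only. The ratio of summed counts to 0 h, scaled for depth, was 2.38 at 2 h (exact 95% interval 0.914 to 6.90), 5.65 at 5 h (2.49 to 15.02) and 11.4 at 48 h (5.26 to 29.3). These intervals cover counting error only. In CPM the level went from 0.0988, 0.0427 and 0.132 at 0 h to 1.203, 0.918 and 1.09 at 48 h, and all libraries at 5 h and 48 h lay above all at 0 h. The edgeR log2 fold changes were called at 5 h, at 2.44 (SE 0.55, adjusted p = 0.0016), and at 48 h, at 3.44 (SE 0.49, adjusted p = 2.4e-05).

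In CGR8 Cish was 1.61, 1.17 and 1.68 CPM at 0 h, 0.9896, 0.849 and 0.598 CPM at 2 h, 0.799, 1.03 and 0.739 CPM at 5 h and 1.58, 1.79 and 1.36 CPM at 48 h. It fell by 0.88 (SE 0.24, adjusted p = 0.018) at 2 h and by 0.80 (SE 0.24, adjusted p = 0.010) at 5 h and rose by 0.89 (SE 0.24, adjusted p = 0.0045) from 5 h to 48 h, when it overlapped the libraries at 0 h. The call at 2 h was lost with the compared groups alone (adjusted p = 0.0924) and without 0 h replicate A or C or 2 h replicate C (adjusted p of 0.0708 to 0.102). The change differed between the lines by -3.16 (SE 0.57, adjusted p = 0.00032) at 5 h and -3.37 (SE 0.52, adjusted p = 2.3e-05) at 48 h. Across the 15 libraries of a line, log2 levels of Cish and Socs2 had a Pearson r of 0.91 in NIH/3T3 and 0.88 in CGR8. This is a description, since the libraries share times and depth.

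Socs5, a member of the family with a long amino-terminal region that acts on several cytokine and growth factor receptors, rose in both lines. In NIH/3T3 it was 112, 121 and 101 CPM at 0 h, 132, 139 and 104 CPM at 1 h, 161, 169.7 and 157 CPM at 2 h, 152, 148 and 154 CPM at 5 h and 114, 116 and 110.5 CPM at 48 h. The 1 h value was not called by edgeR (log2 fold change 0.17, adjusted p = 0.57). It was called with voom weights (0.26, adjusted p = 0.00189) and without the libraries that stood apart (0.27, adjusted p = 0.0087), 1 h replicate C among them. It rose by 0.55 (SE 0.10, adjusted p = 0.00084) at 2 h and 0.44 (SE 0.099, adjusted p = 0.0015) at 5 h, and overlapped 0 h again at 48 h (log2 fold change 0.03, adjusted p = 0.82). In CGR8 it was 7.001, 7.23 and 6.11 CPM at 0 h, 9.15, 9.52 and 9.38 CPM at 5 h and 13.3, 9.96 and 10.1 CPM at 48 h. There the rise was 0.46 (SE 0.15, adjusted p = 0.016) at 5 h and 0.71 (SE 0.15, adjusted p = 0.0018) at 48 h. The values at 1 h (log2 fold change 0.13, adjusted p = 0.81) and 2 h (log2 fold change 0.088, adjusted p = 0.71) were not called. At 48 h the lines differed by 0.67 (SE 0.17, adjusted p = 0.0051). The CGR8 call at 5 h was lost with scaling by library size alone (adjusted p = 0.0569), without a filter (adjusted p = 0.0537) and without 0 h replicate C (adjusted p = 0.0742).

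The PIM kinase genes rose and fell with Socs3 in NIH/3T3. Pim1 was 13.3, 10.9 and 12.9 CPM at 0 h, 17.6, 18.9 and 14.7 CPM at 1 h, 26.8, 23.2 and 21.6 CPM at 2 h, 8.404, 8.08 and 8.04 CPM at 5 h and 5.94, 5.97 and 6.36 CPM at 48 h. Pim3 was 61.6, 72.2 and 74.4 CPM, 83.1, 83.1 and 74.4 CPM, 131, 97.5 and 102 CPM, 49.8, 47.9 and 55.5 CPM and 38.5, 38.3 and 40.3 CPM at the same times. For both genes all libraries at 1 h and 2 h lay above 0 h and all at 5 h and 48 h below. Pim1 rose by 0.94 (SE 0.11, adjusted p = 2.6e-05) at 2 h, 1.92-fold, and Pim3 by 0.67 (SE 0.11, adjusted p = 0.00044), 1.59-fold. From 2 h to 5 h Pim1 fell by 1.54 (SE 0.12, adjusted p = 1.2e-07) and Pim3 by 1.11 (SE 0.11, adjusted p = 2.4e-06), so that both passed their starting level. Against 0 h, Pim1 fell by 0.60 (SE 0.12, adjusted p = 0.00061) at 5 h and by 1.03 (SE 0.12, adjusted p = 4.7e-06) at 48 h. Pim3 fell by 0.44 (SE 0.11, adjusted p = 0.0032) and by 0.83 (SE 0.11, adjusted p = 1.5e-05) at these times. At 1 h neither was called (log2 fold change 0.46, adjusted p = 0.080 for Pim1 and log2 fold change 0.21, adjusted p = 0.51 for Pim3). Both were called there without the libraries that stood apart, Pim1 at 0.54 (adjusted p = 0.000459) and Pim3 at 0.24 (adjusted p = 0.0333), and with voom weights, and DESeq2 called Pim1 (adjusted p = 0.0308). Across the 15 NIH/3T3 libraries the Pearson r was 0.97 between Pim1 and Pim3, 0.90 between Pim1 and Socs3 and 0.88 between Pim3 and Socs3. Across the 15 CGR8 libraries the same pairs had an r of 0.60, 0.56 and 0.81. These are descriptions, since the libraries share times and depth.

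In CGR8 neither PIM gene was called as higher than at 0 h at any time. Pim1 was 62.9, 69.2 and 61.6 CPM at 0 h, 78.3, 62.1 and 56.7 CPM at 2 h, 35.6, 37.5 and 33.7 CPM at 5 h and 33.5, 26.6 and 24.9 CPM at 48 h. Its libraries at 2 h overlapped those at 0 h (log2 fold change 0.024, adjusted p = 0.91), and those at 5 h and 48 h lay below. It fell by 0.86 (SE 0.13, adjusted p = 6.4e-05) at 5 h and by 1.19 (SE 0.13, adjusted p = 8.8e-06) at 48 h, and the step from 2 h to 5 h was a fall by 0.88 (SE 0.13, adjusted p = 0.00038). Pim3 was 114, 119 and 107 CPM at 0 h, 102, 82.96 and 84.6 CPM at 2 h, 119, 109 and 96.5 CPM at 5 h and 86.6, 73.97 and 73.7 CPM at 48 h. It fell by 0.34 (SE 0.11, adjusted p = 0.045) at 2 h and by 0.54 (SE 0.11, adjusted p = 0.0020) at 48 h. The call at 2 h was lost with RLE scaling (adjusted p = 0.0524), without a filter, with the compared groups alone, and without any 1 of the 0 h libraries or 2 h replicate B or C (adjusted p up to 0.169). The lines differed at 2 h by -0.86 (SE 0.18, adjusted p = 0.0042) for Pim1 and by -0.95 (SE 0.16, adjusted p = 0.00041) for Pim3.

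**Figure D3:**
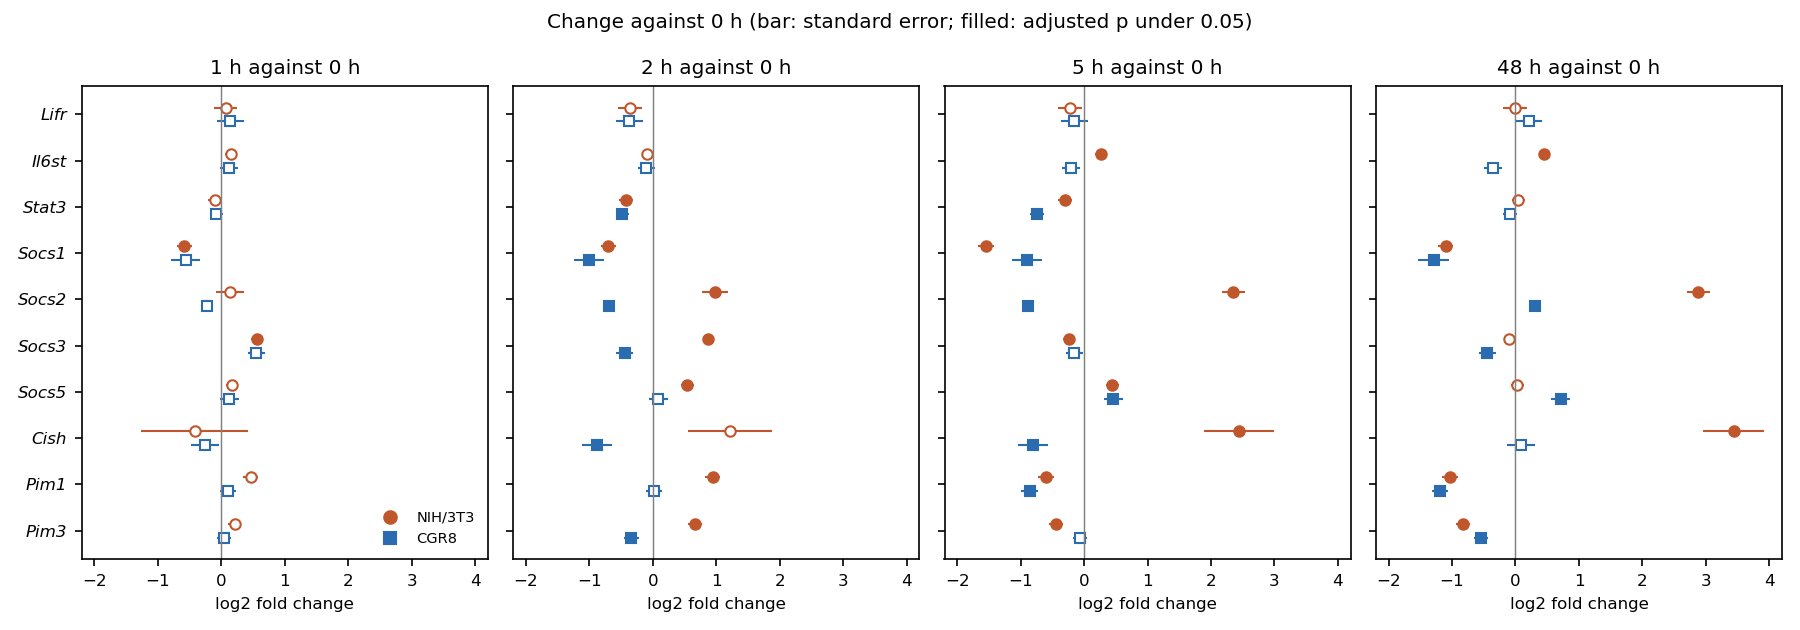
Fitted log2 fold change of each gene against 0 h at 1, 2, 5 and 48 h in NIH/3T3 (circles) and CGR8 (squares). Bars are standard errors and filled symbols have an adjusted p under 0.05 (edgeR, Benjamini-Hochberg). At 2 h Socs2, Socs3, Pim1 and Pim3 are filled to the right of 0 in NIH/3T3, while Socs2, Socs3 and Pim3 are filled to the left in CGR8.

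Neighbouring times were also compared within each line. From 1 h to 2 h in NIH/3T3, 5 of 10 genes rose and 0 fell, where 17.4% of all genes were called (6.08% higher, 11.3% lower). In CGR8, 0 rose and 3 fell over the same step, where 6.59% of all were called (2.71% higher, 3.88% lower). From 2 h to 5 h, 2 rose and 4 fell in NIH/3T3 (23.1% of all, 10.6% higher and 12.5% lower), while in CGR8 Pim1 alone was called, as a fall (19.1% of all, 7.91% higher and 11.2% lower). From 5 h to 48 h, 4 rose and 3 fell in NIH/3T3 (65.6% of all, 34.1% higher and 31.4% lower), and 3 rose and 2 fell in CGR8 (57.5% of all, 28.9% higher and 28.6% lower). With the compared libraries alone, the step from 1 h to 2 h gave 0 calls in NIH/3T3 and 1 in CGR8. Without the libraries that stood apart they were 7 in NIH/3T3 and 5 in CGR8. Leaving out single libraries gave 3 (without 1 h replicate A or 2 h replicate C) to 8 (without 1 h replicate C) in NIH/3T3, and 1 (without any 1 of the 1 h libraries or 2 h replicate C) to 4 in CGR8. From 2 h to 5 h in CGR8 the count was 4 without 2 h replicate A and 3 without the libraries that stood apart.

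The direct test of the difference between the lines called 0 of 10 genes at 1 h by edgeR (0.16% of all genes, with 710 at an unadjusted p under 0.05, and 0 of the 10 also by DESeq2 and voom), 4 at 2 h (2.02% of all), 2 at 5 h (13.3% of all) and 4 at 48 h (21.9% of all). The 4 at 2 h were Socs2, Socs3, Pim1 and Pim3, and in each the CGR8 change lay below the NIH/3T3 change (1.16% of all genes were called in that direction and 0.866% in the other). The 2 at 5 h were Socs2 and Cish, both lower in CGR8 (5.09% of all, with 8.18% higher). At 48 h Socs2, Cish and Il6st lay lower (12.1% of all) and Socs5 higher (9.78% of all) in CGR8. The median difference over all genes was 0.070 at 2 h and 0.13 at 5 h, where scaling by library size alone moved it by -0.19. The count of 2 at 5 h became 4 with DESeq2, 6 with voom weights, 4 without the libraries that stood apart and 5 without CGR8 5 h replicate C. The 4 genes called at 2 h were called under every alternative tried.

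**Figure D4:**
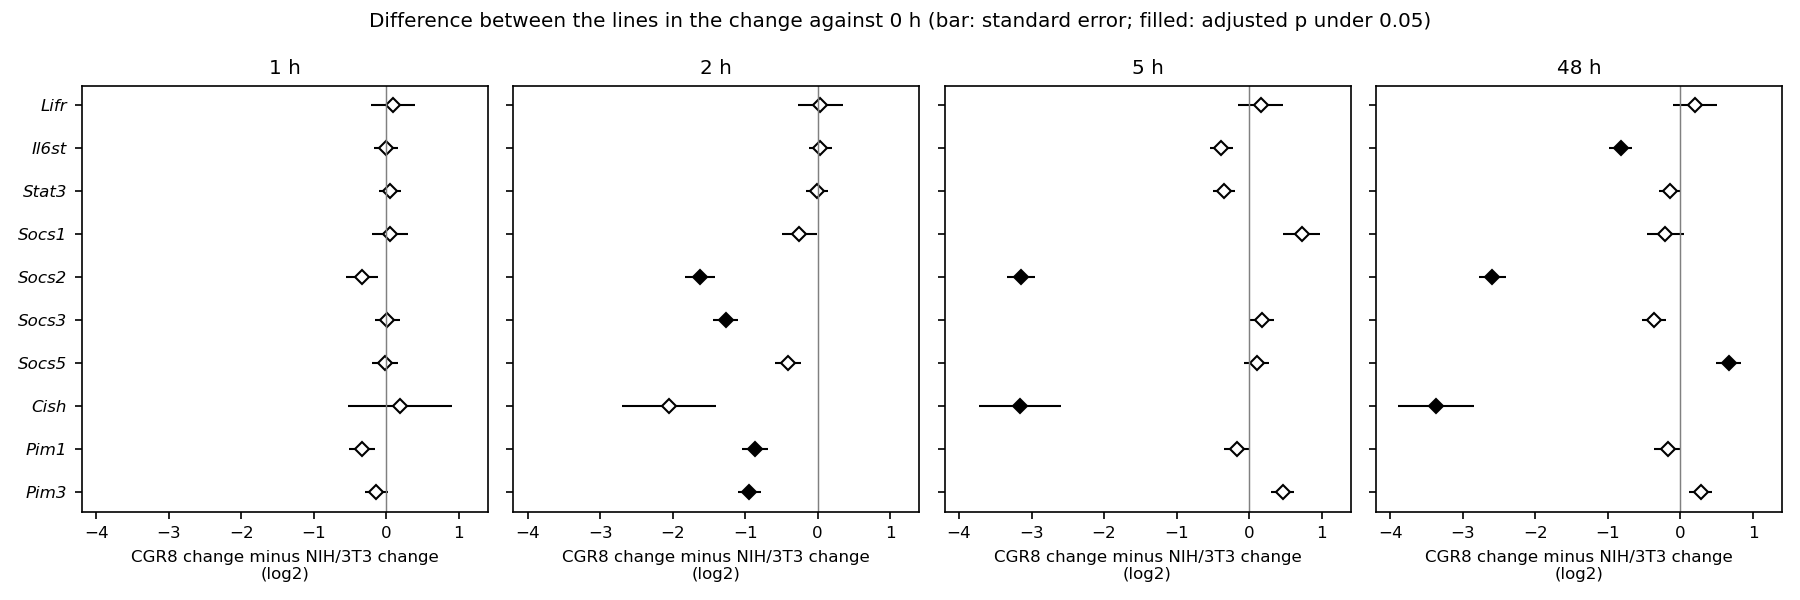
Difference between the lines in the log2 change against 0 h (CGR8 change minus NIH/3T3 change) at 1, 2, 5 and 48 h, from the fit of all 30 libraries. Bars are standard errors and filled diamonds have an adjusted p under 0.05. Socs2 lies at -1.62, -3.14 and -2.59 at 2, 5 and 48 h, and Lifr and Stat3 are open at every time.

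The rest of the pathway was read from 4 lists, which were chosen with earlier results of these data known. Beside each list's counts stands the share of all genes called either way at the same times. Of 23 other ligands and receptors of these cytokine families, 16 were tested in NIH/3T3 and 15 in CGR8. In NIH/3T3, 5 rose and 3 fell at 2 h, 4 rose and 3 fell at 5 h, and 2 rose and 4 fell at 48 h, beside 35.0%, 51.0% and 52.3% of all genes, with median log2 fold changes of -0.039, -0.027 and -0.031. Lif itself went from 7.29 ± 0.227 to 16.9 ± 3.22 CPM at 2 h (SD, n = 3), a rise of 1.22 (SE 0.24, adjusted p = 0.0014), and Il11, a related cytokine that signals through gp130, rose by 1.25 (SE 0.25, adjusted p = 0.0015) at 2 h and 1.53 (SE 0.25, adjusted p = 9.0e-05) at 5 h. At 48 h the receptor genes Osmr (for oncostatin M) and Il11ra1 (for interleukin-11) had risen by 1.54 (SE 0.13, adjusted p = 1.1e-07) and 1.15 (SE 0.15, adjusted p = 1.2e-05), and Clcf1, another gp130 cytokine, had fallen by 1.36 (SE 0.17, adjusted p = 6.8e-06). In CGR8, 1 rose and 4 fell at 2 h, 2 rose and 6 fell at 5 h, and 1 rose and 3 fell at 48 h, beside 19.9%, 52.1% and 27.8% of all genes, with medians of -0.24, -0.52 and 0.15. Under the alternatives, the number higher at 48 h was 2 to 5 in NIH/3T3 and 0 to 5 in CGR8, and the number lower was 1 to 4 at 2 h in NIH/3T3, 2 to 5 at 2 h in CGR8 and 2 to 6 at 5 h in CGR8. Il6ra, the interleukin-6 binding chain, went from 17.0 ± 1.403 CPM at 0 h to 3.63 ± 0.690 CPM at 5 h and 3.98 ± 0.494 CPM at 48 h. Osm (oncostatin M) fell by 1.47 (SE 0.20, adjusted p = 3.1e-05) at 5 h, and Lif, at 2.99 ± 0.0750 CPM at 0 h in CGR8, rose by 1.21 (SE 0.21, adjusted p = 0.00056) at 48 h. At 1 h no gene of this list was called in either line by edgeR, and voom weights called 2 higher and 1 lower in NIH/3T3 and 0 higher and 1 lower in CGR8.

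The kinases, STAT factors and adaptors (13 listed, 12 tested in NIH/3T3 and 13 in CGR8) were called lower at 2 h and 5 h and mostly higher at 48 h in NIH/3T3. There 0 rose and 9 fell at 2 h, 0 rose and 7 fell at 5 h, and 8 rose and 1 fell at 48 h, beside 35.0%, 51.0% and 52.3% of all genes, with median log2 fold changes of -0.40, -0.28 and 0.50 against -0.0051, -0.011 and -0.0088 over all genes. Those that fell at 2 h included all 4 Janus kinase genes, named after their values were seen: Jak3 at -0.92, Tyk2 at -0.76, Jak2 at -0.63 and Jak1 at -0.27 on the log2 scale. By direction, 18.9% of all genes in NIH/3T3 were called lower at 2 h and 27.1% at 5 h, and 26.7% were called higher at 48 h. Jak3 rose by 1.18 (SE 0.21, adjusted p = 0.00019) at 48 h. In CGR8, 0 rose and 4 fell at 2 h, 0 rose and 9 fell at 5 h, and 3 rose and 4 fell at 48 h, beside 19.9%, 52.1% and 27.8% of all genes, with medians of -0.33, -0.61 and -0.17. Stat5b fell by 1.10 (SE 0.14, adjusted p = 1.8e-05) at 5 h. None was called at 1 h in either line by edgeR, while voom weights called 2 as higher in NIH/3T3 and none in CGR8. Under the alternatives, the number lower at 2 h ranged from 6 to 11 in NIH/3T3 and from 1 (the compared groups alone) to 6 in CGR8, and at 5 h from 3 to 10 in NIH/3T3 and from 8 to 10 in CGR8. At 48 h the number higher in NIH/3T3 was 7 to 9, and in CGR8 the number lower was 3 to 7.

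Other negative regulators of the pathway (16 listed and 16 tested in each line, among them further SOCS genes, phosphatases, PIAS proteins and subunits of the SOCS ubiquitin ligase) moved both ways. In NIH/3T3, 4 rose and 3 fell at 2 h, 5 rose and 6 fell at 5 h, and 5 rose and 6 fell at 48 h, beside 35.0%, 51.0% and 52.3% of all genes. In CGR8 2 rose and 5 fell, 3 rose and 6 fell, and 2 rose and 3 fell at these times, beside 19.9%, 52.1% and 27.8% of all genes. Under the alternatives the number lower at 2 h was 3 to 7 in NIH/3T3 and 2 to 6 in CGR8, the number higher at 2 h in CGR8 was 0 to 3, and at 48 h in CGR8 1 to 5 were higher and 1 to 3 lower. Their median log2 fold change lay between -0.12 and 0.14 in these 6 comparisons. Sh2b3 (the adaptor LNK, a brake on Janus kinase 2) fell in both lines, by 1.52 (SE 0.12, adjusted p = 1.8e-07) at 5 h in NIH/3T3 and by 1.58 (SE 0.13, adjusted p = 6.0e-07) at 5 h in CGR8. Eloc (elongin C, which joins SOCS proteins to their ubiquitin ligase) rose in CGR8 by 1.18 (SE 0.13, adjusted p = 4.7e-06) at 5 h, and Rnf7 (a RING subunit of such ligases) fell there by 1.25 (SE 0.12, adjusted p = 1.9e-06) at 48 h. At 1 h edgeR called none in either line, while voom weights called 4 higher and 1 lower in NIH/3T3 and 1 higher and 1 lower in CGR8.

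Genes known as targets of STAT3 or STAT5 (28 listed) were called mostly higher at 2 h and mostly lower at 48 h in NIH/3T3, and in both directions at 5 h in CGR8. In NIH/3T3, with 20 tested, 5 rose and 0 fell at 1 h, 13 rose and 2 fell at 2 h, 5 rose and 8 fell at 5 h, and 5 rose and 13 fell at 48 h. Of all genes, 0.653%, 16.1%, 24.0% and 26.7% were called higher at these times and 0.0789%, 18.9%, 27.1% and 25.6% lower. As the list was chosen with earlier results of these data known, its counts beside these shares are a description. Their median log2 fold changes over the 4 times, in order, were 0.20, 0.42, -0.22 and -0.49, against 0.022, -0.0051, -0.011 and -0.0088 over all genes. Junb, an AP-1 subunit, went from 59.5 ± 3.79 CPM at 0 h to 588 ± 113 CPM at 2 h, a rise of 3.30 (SE 0.17, adjusted p = 1.0e-09), and was lower than at 0 h by 5 h (26.2 ± 2.18 CPM). Fos, its partner, went from 0.597 ± 0.0899 to 9.18 ± 1.32 CPM at 2 h. Nfil3, Ier3, Tnfrsf12a and Myc rose at 2 h by 2.23, 1.81, 1.13 and 1.04 on the log2 scale. In CGR8, with 26 tested, 2 rose and 0 fell at 1 h, 3 rose and 3 fell at 2 h, 7 rose and 11 fell at 5 h, and 3 rose and 7 fell at 48 h, with medians of 0.015, -0.044, -0.31 and -0.29. Of all genes, 0.144%, 8.97%, 24.9% and 12.2% were called higher at these times and 0.126%, 11.0%, 27.2% and 15.6% lower. The 2 that rose at 1 h were Fos, from 1.17 ± 0.260 to 6.03 ± 0.994 CPM, and Junb. Tfcp2l1, a factor of the naive pluripotent state downstream of LIF, went from 1076 ± 73.4 CPM at 0 h to 452 ± 130.4 CPM at 5 h, a fall by 1.25 (SE 0.19, adjusted p = 7.0e-05). Pim2, the third PIM kinase, rose in CGR8 by 1.58 (SE 0.25, adjusted p = 0.00022) at 48 h while Pim1 and Pim3 fell. Its level went from 14.3 ± 1.38 CPM at 0 h to 42.7 ± 19.1 CPM at 48 h, with a wide spread between the replicates at 48 h. Many of these genes are also targets of serum and stress pathways, and which factor acted was not tested. The 5 that rose at 1 h in NIH/3T3 became 11 without the libraries that stood apart and with voom weights, and 3 with the compared groups alone. In CGR8 at 2 h, 8 fell without the libraries that stood apart and 1 with the compared groups alone. Under the alternatives 7 to 13 were lower and 5 to 8 higher at 5 h in CGR8, and 4 to 10 lower and 2 to 5 higher at 48 h.

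**Figure D5:**
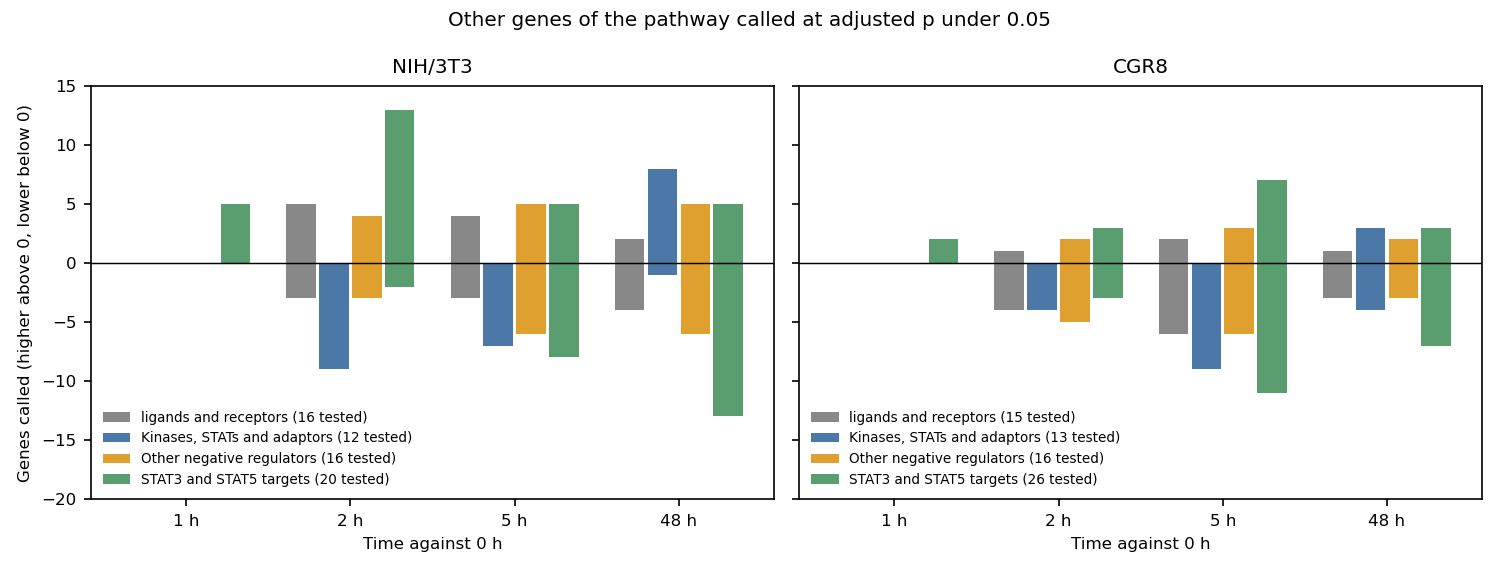
Number of genes in 4 lists of the pathway called higher (above 0) or lower (below 0) than at 0 h, at 1, 2, 5 and 48 h, in NIH/3T3 (left) and CGR8 (right). At 2 h in NIH/3T3, 13 of 20 targets tested are higher and 9 of 12 kinases, STATs and adaptors lower.

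For each of the 10 genes, the most similar patterns were sought among 7088 or 7089 genes (the gene itself left out) of at least 10 CPM in each line, by Pearson r over the 30 libraries on log2 CPM with each line's mean removed. Socs3 was closest to Junb (0.843) and Trib1 (0.819), and Pim3 to Ier2 (0.894) and Slc25a25 (0.878). Pim1 was closest to Paip2b (0.912) and Smad7 (0.907), Socs2 to Clpx (0.900) and Zxdc (0.886), Socs1 to Tex261 (0.892) and Gas2l1 (0.891), and Socs5 to Rnf114 (0.809) and Ikzf5 (0.769). Stat3 was closest to Ndst1 (0.960) and Rtel1 (0.942), Il6st to Ptbp3 (0.874) and Fermt2 (0.867), and Lifr to Fmr1 (0.869) and Ddx46 (0.865). Cish, whose NIH/3T3 counts are few, was closest to Foxo1 (0.834) and Chfr (0.831). The libraries share their times, depths and scaling, so that these values are descriptions.

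Exons of 3 of the 10 genes overlap another gene on the opposite strand in GENCODE M21. Stat3 shares 72 bases with Stat5a (6999 counts over all libraries against 81571 for Stat3), Pim1 shares 488 bases with Gm26885 (245 against 24375), and Cish shares 261 and 479 bases with Gm17040 and Gm17041 (4 and 0 against 588). The use of strand in counting was not given in the sources used here, and the overlapping counts are small beside those of the genes described.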

How the data were processed

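RNA levels were measured in 30 libraries, 3 per line and time, prepared with a stranded mRNA ligation kit per the labels' protocols. The authors deposited unnormalized counts of reads for each gene, and 51880 of 57186 identifiers (90.7%) were paired with a symbol through GENCODE M21. STAR, DESeq2 and GRCm39 are named in the submitters' processing notes, without a role, and the counting tool, its use of strand and the annotation release are not given in the sources used here. Coordinates are printed only for RefSeq promoter windows, on GRCm38.p6.

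Counts were fitted in R 4.3.3 with edgeR 4.0.16: filterByExpr (minimum count 10, minimum total 15), TMM scaling, and the quasi-likelihood F test with 1 coefficient per group. Each line was fitted on its own 15 libraries (13941 genes tested in NIH/3T3, 15933 in CGR8), and the lines were compared in a fit of all 30 (17549 genes). The Benjamini-Hochberg adjustment ran over every gene in a fit, and calls needed an adjusted p below 0.05. The F test gives no standard error. Each SE is therefore the size of the log2 fold change divided by the square root of F. CPM is the deposited count over the library's total of genes kept by the filter times its TMM factor, both from the fit of its own line. CPM values of the lines are thus not on a common scale, while fitted differences between the lines come from the fit of all 30 libraries. For cell type markers the full library total was used alone. CPM per kb takes the factors of the 30-library fit and divides by the merged length of all exons of the gene in GENCODE M21.

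No replicates agreed within sampling noise (lowest chi-square per degree of freedom 1.67), so none was merged. Totals of 18.2 to 30.5 M counts leave genes such as Cish, with few counts, the least precise. Alternatives were RLE factors, library size alone, DESeq2 1.42.0, no filter, a mean of 5 CPM, fits of only the groups compared, a block for the replicate letter, voom quality weights in limma 3.58.1, each library left out, and, added after the data had been seen, the 5 libraries that stood apart left out.

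The 10 genes and the 4 lists of pathway genes were chosen with earlier results of these data known. Named pathway genes were those called against 0 h whose log2 fold change reached 1 in size and whose higher group reached 5 CPM, and the nearest patterns were the 2 highest correlations per gene. A result that met this rule is not reported here.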

Additional observations from a re-analysis of the deposited data

Results flagged for a closer look

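A difference between the lines in the change against 0 h, tested as an interaction in the edgeR fit of all 30 libraries, was called for 10 pairs of gene and time. Values are the CGR8 change minus the NIH/3T3 change on the log2 scale, with adjusted p-values over all 17549 genes. At 2 h they were -1.62 for Socs2 (SE 0.20, adjusted p = 5.8e-06), -1.27 for Socs3 (SE 0.17, adjusted p = 1.3e-05), -0.86 for Pim1 (SE 0.18, adjusted p = 0.0042) and -0.95 for Pim3 (SE 0.16, adjusted p = 0.00041). All 3 libraries of each of these genes lay above 0 h in NIH/3T3 at 2 h. In CGR8 all 3 lay below 0 h for Socs2, Socs3 and Pim3, and those of Pim1 overlapped it. Of all genes, 45.1% in NIH/3T3 and 32.1% in CGR8 had libraries at 2 h that did not overlap those at 0 h.

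At 5 h the differences were -3.14 for Socs2 (SE 0.19, adjusted p = 2.3e-11) and -3.16 for Cish (SE 0.57, adjusted p = 0.00032). Both genes had risen in NIH/3T3 and fallen in CGR8 at that time. At 48 h they were -2.59 for Socs2 (SE 0.19, adjusted p = 1.4e-10), -3.37 for Cish (SE 0.52, adjusted p = 2.3e-05), -0.82 for Il6st (SE 0.16, adjusted p = 0.00038) and 0.67 for Socs5 (SE 0.17, adjusted p = 0.0051). The differences of Cish rest on 7 counts at 0 h in NIH/3T3 and are imprecise. The lines differ in cell type and medium together, and which of these goes with the differences cannot be told apart.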

How the results depend on the processing

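Over 190 gene comparisons, 3045 values were recomputed under the alternatives. None of the called values changed sign, 89 calls were lost and 92 were gained, and 109 values called in neither setting differed in sign. Of the 89 main calls, 67 held in every alternative that tested the gene. All 38 named pathway values stayed called with the same direction in 563 refits.

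Counts of the 10 genes that moved by more than 1.5 times were these. With voom weights the count became 7 at 1 h in NIH/3T3, 3 at 1 h in CGR8, 8 from 1 h to 2 h in NIH/3T3, 2 from 2 h to 5 h in CGR8 and 6 for the difference at 5 h. With the compared groups alone it became 0 at 1 h in NIH/3T3, 1 at 2 h in CGR8, 0 from 1 h to 2 h in NIH/3T3 and 1 from 1 h to 2 h in CGR8. DESeq2 gave 1 at 1 h in CGR8 and 4 for the difference at 5 h, and no filter gave 1 at 1 h in CGR8. Without the libraries that stood apart the counts were 5 at 1 h in NIH/3T3, 1 at 1 h in CGR8, 5 from 1 h to 2 h in CGR8, 3 from 2 h to 5 h in CGR8 and 4 for the difference at 5 h. The shares of all genes called, given with the main counts, do not apply to these settings. The causes were not tested.

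With single libraries left out, the counts in NIH/3T3 ranged from 1 to 3 at 1 h, 7 to 7 at 2 h, 6 to 7 at 5 h and 6 to 6 at 48 h. In CGR8 they ranged from 0 to 0 at 1 h, 2 to 6 at 2 h, 5 to 6 at 5 h and 4 to 6 at 48 h. For the steps they were 3 to 8, 6 to 7 and 6 to 7 in NIH/3T3 and 1 to 4, 1 to 4 and 4 to 6 in CGR8. For the differences they were 0 to 0, 4 to 4, 2 to 5 and 4 to 5 at 1, 2, 5 and 48 h, and 10 to 10 between the lines at 0 h.

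Over 30 pairs of libraries with the same letter per line, the correlation of deviations from the group means had a median of 0.0482 in NIH/3T3 (-0.48 to 0.54, 13 over 0.1) and 0.0566 in CGR8 (-0.77 to 0.70, 14 over 0.1), against medians of -0.042 and -0.024 for other letters. As not every pair lay over 0.1, the letters were not taken to pair the libraries. The replicate block kept every count within 1.5 times: it lost the Stat3 call from 1 h to 2 h in CGR8 (-0.40, adjusted p = 0.0627) and gained Socs3 from 5 h to 48 h in CGR8 (-0.29, adjusted p = 0.0344) and the difference of Socs1 at 5 h (0.72, adjusted p = 0.049). The filter at a mean of 5 CPM left Cish and some other low genes untested. With 7 counts over 3 libraries at 0 h, depth limits the precision of Cish in NIH/3T3.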
